A study of Mus musculus with 10 samples.

Results

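Claudins are the membrane proteins that build the strands of the tight junction, the belt that seals neighbouring epithelial or endothelial cells to each other and sets which ions and solutes pass between them. In liver they close the bile canaliculus between hepatocytes and the lumen of the bile duct, so that bile stays apart from blood. Some members tighten the seal and others form pores, and each cell type carries its own mix. The genes described here are 10 claudins, Cldn1, Cldn2, Cldn3, Cldn4, Cldn5, Cldn6, Cldn7, Cldn12, Cldn14 and Cldn23, out of 30 claudin genes and 22180 genes with a value. Each was read from the probe set that the array annotation gives exactly 1 gene symbol, and each of the 10 had a single such probe set. They were chosen by their measured values: Cldn6 and Cldn7 had been seen to lie higher in Jag1+/-Rfng+/- tracts, and the others were taken to see which of them are expressed and which follow.

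The arrays hold RNA from portal tracts, the sleeves of tissue in which bile duct, portal vein and hepatic artery run together, cut by laser from liver sections of mice 1 week old. There were 5 Jag1+/-Rfng+/- samples, heterozygous for the Notch ligand gene Jag1 and for Rfng, which encodes Radical fringe, a glycosyltransferase acting on Notch, and 5 control samples, whose strain is given as C57Bl/6J. The strain of the Jag1+/-Rfng+/- mice, the exact genotype of the controls and the kind of either mutant allele are not given in the sources used here. Every sample pools 12 to 20 tracts, and no label says that each came from its own mouse, so every spread given here is the spread between these samples. Values are log2 expression as the authors deposited them, so a difference of 1 is a doubling.

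Array data carry no read depth, and their precision is limited by the number of arrays. The array medians ran from 3.22 to 3.30. Jag1+/-Rfng+/- replicate 5 correlated with the other arrays at no more than 0.963, against at least 0.969 among the other 9, and its sample name carries an unexplained suffix, excl. The claudin differences that moved most without it are given both ways. Rfng averaged 4.36 ± 0.16 in Jag1+/-Rfng+/- and 4.82 ± 0.20 in control tracts (SD, n = 5 each; two-sided exact permutation p = 0.00794, below which no split of these arrays can go). Jag1 averaged 4.39 ± 0.63 in Jag1+/-Rfng+/- and 5.72 ± 0.93 in control tracts (SD, n = 5 each; exact permutation p = 0.0556, two-sided). In limma's fit over all genes, 2 of 22180 passed an adjusted p of 0.05, Slpi (higher) and Mme (lower), or 0.00902% in all and 0.00451% in each direction, and 0 of the 10 claudins did. At an unadjusted p under 0.05 there were 5 of the 10, all higher, where 2.98% of all genes were, and 3 without Jag1+/-Rfng+/- replicate 4 or without control replicate 5. The choice of the claudins used this contrast, so their differences are given as a description with no test, and nothing is read from these counts.

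A gene that is not expressed still gives a reading. Y-linked genes on the arrays with high Xist, and Xist on the others, read between 1.82 and 2.91, and 95% of 1390 olfactory and vomeronasal receptor genes averaged under 3.13. Of the 10 claudins, 8 read above 2.91 on every array and averaged above 3.13: Cldn1, Cldn3, Cldn4, Cldn5, Cldn6, Cldn7, Cldn12 and Cldn14. The other two, Cldn2 and Cldn23, gave readings that lay largely within the range of absent genes. Different probe sets bind with different strength, so the claudins were not ranked by level against each other.

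**Figure D1:**
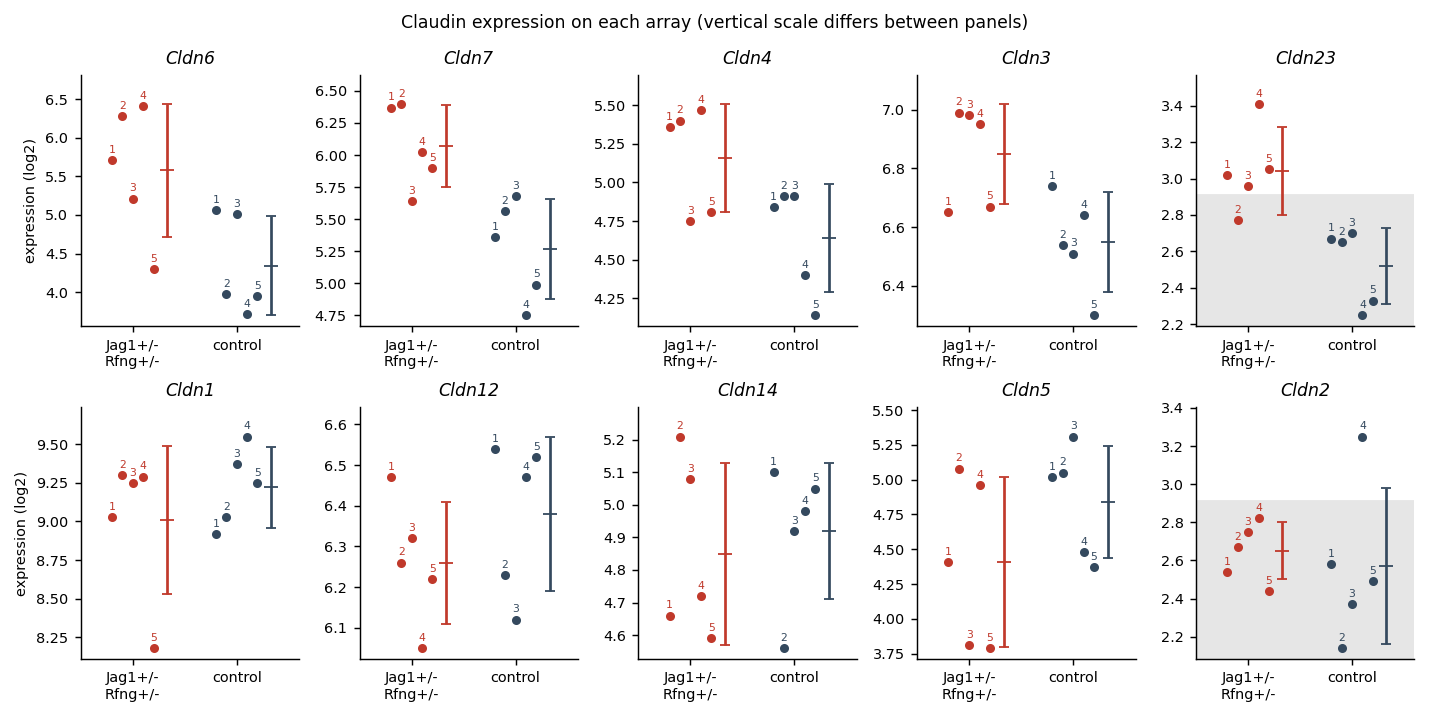
Each panel plots the log2 expression of 1 claudin on the 5 Jag1+/-Rfng+/- arrays (red, left) and the 5 control arrays (dark, right), numbered by replicate, with the mean and SD beside them and grey marking the range of absent genes, 1.82 to 2.91. Cldn23 is the one panel in which the groups do not overlap, and for Cldn6 and Cldn7 4 Jag1+/-Rfng+/- arrays lie above every control.

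Cldn6 and Cldn7 were the claudins with the widest upward difference among the 10. Cldn6, a claudin of embryonic epithelia that is scarce in most adult tissues (probe set 17334097, chromosome 17), read 5.71, 6.28, 5.21, 6.41 and 4.30 on Jag1+/-Rfng+/- replicates 1 to 5, against 5.06, 3.97, 5.01, 3.72 and 3.95 on control replicates 1 to 5. It was above the highest control on 4 Jag1+/-Rfng+/- arrays, while replicate 5 lay within the control range, and controls 1 and 3 stood about 1 unit above the other 3 controls. The group difference was 1.24 ± 0.40 log2 (SE), 2.36-fold, and 1.56 without Jag1+/-Rfng+/- replicate 5.

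Cldn7, a claudin of the lateral membrane of duct and other simple epithelia (probe set 17251829, chromosome 11), read 6.37, 6.40, 5.64, 6.02 and 5.90 in Jag1+/-Rfng+/- tracts, against 5.36, 5.56, 5.68, 4.75 and 4.99 in control tracts. Jag1+/-Rfng+/- replicate 3 and control replicate 3 almost coincided, at 5.64 and 5.68, and the other 4 Jag1+/-Rfng+/- arrays lay above every control. The difference was 0.80 ± 0.20 log2 (SE), 1.74-fold. The sample names hold 4 numbers of unstated meaning, and 7 arrays (4 Jag1+/-Rfng+/- and 3 control) share the one found in both groups. Within those 7, Cldn6 differed by 1.32 and Cldn7 by 0.66, and without Jag1+/-Rfng+/- replicate 5 by 1.73 and 0.69. Each of the remaining numbers belongs to a single array, so no comparison within it was possible.

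Cldn4, Cldn3 and Cldn23 lay higher by smaller amounts. Cldn4, a barrier claudin of duct epithelia and a receptor for a clostridial enterotoxin (probe set 17453496, chromosome 5), read 5.36, 5.40, 4.75, 5.47 and 4.81 in Jag1+/-Rfng+/- tracts, against 4.84, 4.91, 4.91, 4.40 and 4.14 in control tracts. Jag1+/-Rfng+/- replicates 1, 2 and 4 stood above all controls, and replicates 3 and 5 lay among them, for a difference of 0.52 ± 0.20 log2 (SE), 1.43-fold.

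Cldn3, another enterotoxin receptor, found in hepatocytes and bile ducts (probe set 17443148, chromosome 5), read 6.65, 6.99, 6.98, 6.95 and 6.67 in Jag1+/-Rfng+/- tracts, against 6.74, 6.54, 6.51, 6.64 and 6.30 in control tracts. Jag1+/-Rfng+/- replicates 2, 3 and 4 lay above all controls, and replicates 1 and 5 among them. Replicates 2 and 4 stood above the controls for both Cldn3 and Cldn4. Cldn3 differed by 0.30 ± 0.12 log2 (SE), 1.23-fold.

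Cldn23, a claudin studied mostly in skin and intestinal epithelium (probe set 17508779, chromosome 8), read 3.02, 2.77, 2.96, 3.41 and 3.05 in Jag1+/-Rfng+/- tracts, against 2.67, 2.65, 2.70, 2.25 and 2.33 in control tracts. It was the one member whose groups did not overlap, where 0.618% of all genes lay apart with Jag1+/-Rfng+/- higher, and the choice of the claudins used this contrast. The difference was 0.52 ± 0.14 log2 (SE), but every control lay inside the range of absent genes, so the fold is not bounded and 4 arrays, all Jag1+/-Rfng+/-, lay above that range.

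The promoters of the claudins with the widest upward differences are shown because both altered genes belong to the Notch pathway, and Notch acts on DNA through the protein RBPJ, whose core motif TGGGAA was searched on both strands. The windows run from 250 bases before to 50 bases after the annotated start, from RefSeq on GRCm38.p6. Of the 10 claudins 9 had a window in that table, and Cldn23 had none. Cldn7 had 2 windows, and the one printed is the one that holds the core. Capitals mark the RBPJ core, written as TTCCCA where it lies on the opposite strand.
Cldn6, chr17:23679115-23679414, plus strand: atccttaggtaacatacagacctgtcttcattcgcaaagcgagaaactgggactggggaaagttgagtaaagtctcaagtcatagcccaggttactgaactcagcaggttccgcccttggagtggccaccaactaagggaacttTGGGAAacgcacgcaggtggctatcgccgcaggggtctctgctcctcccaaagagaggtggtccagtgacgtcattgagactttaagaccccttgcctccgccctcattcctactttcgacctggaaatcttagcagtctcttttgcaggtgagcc
Cldn7, chr11:69965171-69965470, plus strand, the second of its annotated starts: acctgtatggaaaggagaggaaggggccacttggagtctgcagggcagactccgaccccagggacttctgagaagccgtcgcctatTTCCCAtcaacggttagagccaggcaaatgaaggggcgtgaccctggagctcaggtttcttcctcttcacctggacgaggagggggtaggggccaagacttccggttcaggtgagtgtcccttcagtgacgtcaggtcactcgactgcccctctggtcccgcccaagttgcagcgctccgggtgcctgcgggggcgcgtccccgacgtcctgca
Cldn4, chr5:134946885-134947184, minus strand: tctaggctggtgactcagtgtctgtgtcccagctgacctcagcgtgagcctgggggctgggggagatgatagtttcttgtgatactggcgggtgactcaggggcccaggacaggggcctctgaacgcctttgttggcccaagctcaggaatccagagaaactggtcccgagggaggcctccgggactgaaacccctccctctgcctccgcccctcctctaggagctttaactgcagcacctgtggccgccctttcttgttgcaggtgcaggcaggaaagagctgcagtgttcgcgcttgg
The core lay once in the Cldn6 window, at position -106 from the start, and once in the second Cldn7 window, at position -164 on the opposite strand. The Cldn4 window, the first Cldn7 window and the Cldn3 window held none. Among all 32851 windows of this length 25.6% hold the core, Cldn2 and Cldn14 among them, so its presence does not set Cldn6 and Cldn7 apart. The grainyhead motif AACCNGTT, held by 2.09% of all windows, was matched in the Cldn5 window alone among the claudins. The ETS motif AGGAAG, held by 35.4%, was matched in Cldn7 and Cldn2, and the SP1 motif GGGCGG, held by 35.7%, in Cldn6, the second Cldn7 window, Cldn4, Cldn3, Cldn1, Cldn5 and Cldn12. The RBPJ matches in Cldn6 and Cldn7 overlap none of the other motifs. A match describes the letters of the window and not a site in use.

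For Cldn1, Cldn12, Cldn14 and Cldn2 the difference was no larger than about its SE. Cldn1, a main sealing claudin of hepatocytes and cholangiocytes, whose loss in humans causes neonatal sclerosing cholangitis with ichthyosis (probe set 17329479, chromosome 16), read 9.03, 9.30, 9.25, 9.29 and 8.18 in Jag1+/-Rfng+/- tracts, against 8.92, 9.03, 9.37, 9.55 and 9.25 in control tracts. Jag1+/-Rfng+/- replicate 5 was the low array, and the other 4 lay within the control range. The difference of -0.21 ± 0.21 log2 (SE) shrank to 0.00 without that array.

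Cldn12, a broadly expressed claudin (probe set 17445370, chromosome 5), averaged 6.26 ± 0.15 in Jag1+/-Rfng+/- and 6.38 ± 0.19 in control tracts (SD, n = 5 each), with 1 Jag1+/-Rfng+/- array below the lowest control. The Cldn12 difference of -0.11 ran from -0.18 to -0.06 with single arrays left out, the ends coming from control replicate 3 and Jag1+/-Rfng+/- replicate 4. Cldn14, a cation barrier claudin of liver, kidney and inner ear (probe set 17332290, chromosome 16), averaged 4.85 ± 0.28 in Jag1+/-Rfng+/- and 4.92 ± 0.21 in control tracts (SD, n = 5 each). The Cldn14 difference of -0.07 turned to 0.08 among the 7 arrays of the number found in both groups and to 0.18 among them without Jag1+/-Rfng+/- replicate 5. For both genes the ranges of the groups overlapped over most of their length.

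Cldn2, which forms pores for cations and water and in liver is carried mainly by hepatocytes near the central vein (probe set 17538134, chromosome X), read 2.44 to 2.82 in Jag1+/-Rfng+/- tracts, with a median of 2.67, and 2.14 to 3.25 in control tracts, with a median of 2.49. Only control replicate 4 exceeded the range of absent genes, at 3.25, so no expression of Cldn2 above that range was measurable on the other 9 arrays. Its difference of 0.08 ± 0.18 log2 (SE) turned to -0.03 without control replicate 2 and was 0.25 without control replicate 4.

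Cldn5, the main claudin of vascular endothelium (probe set 17323755, chromosome 16), read 4.41, 5.08, 3.81, 4.96 and 3.79 in Jag1+/-Rfng+/- tracts, against 5.02, 5.05, 5.31, 4.48 and 4.37 in control tracts. Jag1+/-Rfng+/- replicates 3 and 5 lay below every control and the others among them, a difference of -0.43 ± 0.28 log2 (SE). It was -0.28 without either of these arrays and reached -0.60 without Jag1+/-Rfng+/- replicate 2. The list of 16 other endothelial genes had 9 members higher and 7 lower, 0 past the adjusted threshold, and array means of -0.14 to 0.33 in Jag1+/-Rfng+/- and -0.16 to 0.20 in control tracts, relative to the control average. The direction of Cldn5 turned with a list of another cell type as covariate, to 0.37 with the biliary list and 0.19 with the portal fibroblast list.

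Over the 10 claudins 6 differed upward and 4 downward, where 10766 of 22180 genes lay higher. Their median difference was 0.19 against -0.01 over all genes tested. The choice of the 10 used this contrast, so nothing is read from that count or median, nor from setting them against the remaining claudins. The remaining 20 measured claudins, of 25 on the list, had a median difference of 0.00 when rounded, with 9 higher, 11 lower and 0 past an adjusted p of 0.05 in limma's fit. At an unadjusted p under 0.05 there were 2, 1 lower and 1 higher, which is 10% against 6.76% of all genes. Cldn8, a barrier claudin of the distal kidney tubule, read 1.72 to 2.36 in Jag1+/-Rfng+/- tracts, with a median of 2.06, and 2.26 to 3.92 in control tracts, with a median of 2.63 (difference -0.85 ± 0.28 log2, SE; limma adjusted p = 0.597). It read above the range of absent genes on control replicates 1 and 3 only, at 3.92 and 3.39. Cldn19, a partner of the magnesium channel claudin of the kidney, read 4.29 to 4.62 in Jag1+/-Rfng+/- tracts and 3.99 to 4.25 in control tracts (difference 0.22 ± 0.10 log2, SE; limma adjusted p = 0.708). In all, 3 of these 20 claudins read above the range of absent genes on every array, Cldn13, Cldn19 and Cldn20.

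**Figure D2:**
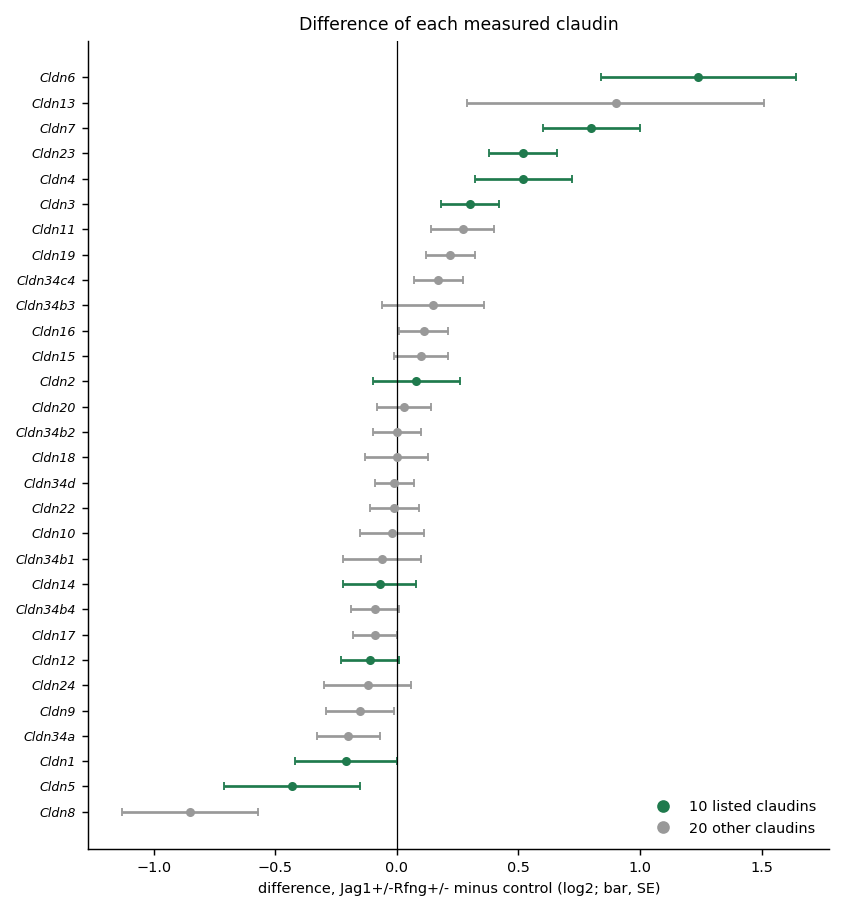
The difference of each of the 30 measured claudins, Jag1+/-Rfng+/- minus control, in log2 with its SE, for the 10 listed claudins (green) and the other 20 (grey). Cldn6 at 1.24 and Cldn7 at 0.80 lie to the right, and Cldn8 at -0.85 and Cldn5 at -0.43 to the left, while Cldn13 at 0.90 has the widest error and is 0.19 without Jag1+/-Rfng+/- replicate 5.

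Several claudins sit side by side in the genome. In the RefSeq gene order the nearest measured gene on one side of Cldn6 is its paralog Cldn9, which averaged 2.35 ± 0.08 in Jag1+/-Rfng+/- and 2.50 ± 0.33 in control tracts (SD, n = 5 each), both means inside the range of absent genes. On the other side lies Tnfrsf12a, the receptor of the cytokine TWEAK, which averaged 5.89 ± 0.28 in Jag1+/-Rfng+/- and 4.99 ± 0.32 in control tracts (SD, n = 5 each), 1.87-fold, with groups that did not overlap (limma adjusted p = 0.189). Over all genes 0.618% lay apart in that direction. Cldn3 and Cldn4 neighbour each other, and beyond Cldn4 lies Mettl27, with a difference of 0.46 ± 0.15 log2 (SE; limma adjusted p = 0.597). The neighbours of Cldn7, Slc2a4 and Elp5, differed by 0.12 and 0.00, and Cldn16 beside Cldn1 by 0.11. None of these neighbours passed the adjusted threshold.

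Cldn6 and Cldn7 read higher while most genes of the biliary epithelium list read lower. Which cells of the tracts gave the Cldn6 and Cldn7 readings was not tested. Of 18 measured genes of the biliary epithelium list, which holds no claudin, 14 lay lower and 4 higher, with a median difference of -0.50 and 0 past the adjusted threshold. The list's mean relative to the control average ran from -0.84 to -0.25 in Jag1+/-Rfng+/- and from -0.32 to 0.39 in control tracts. Its defining markers Krt7, Krt19, Epcam and Sox9 read above the range of absent genes on all 10 arrays, and differed by -0.75, -0.75, -0.76 and -0.93. In bulk samples, fewer cells of a type and less RNA per cell cannot be told apart. The portal fibroblast list had 13 of 15 members lower, 0 past the adjusted threshold, and array means of -1.45 to -0.09 in Jag1+/-Rfng+/- and -0.71 to 0.36 in control tracts, and Eln, Thy1 and Pdgfra above the range of absent genes on all arrays. The hepatocyte list ran from -0.12 to 0.05 in Jag1+/-Rfng+/- and from -0.16 to 0.14 in control tracts, over 21 genes. The list of gut, pancreas and gallbladder genes ran from -0.07 to 0.07 in Jag1+/-Rfng+/- and from -0.08 to 0.10 in control tracts over 15 genes, and of its defining markers Cdx2, Vil1 and Cela1 read above the range of absent genes on 3, 5 and 10 arrays.

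With the mean of the biliary list as a covariate the Cldn6 difference was 2.25 and the Cldn7 difference 1.16, Cldn4 was 0.96 and Cldn3 0.51, and Cldn12 was -0.38. With the fibroblast list as covariate Cldn6 differed by 2.13, Cldn7 by 1.07 and Cldn4 by 0.84, and with the hepatocyte list by 1.19, 0.73 and 0.46. The groups share little of the range of the biliary list, so the adjusted values extend beyond the arrays measured, and the part of cell content in these differences was not tested.

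**Figure D3:**
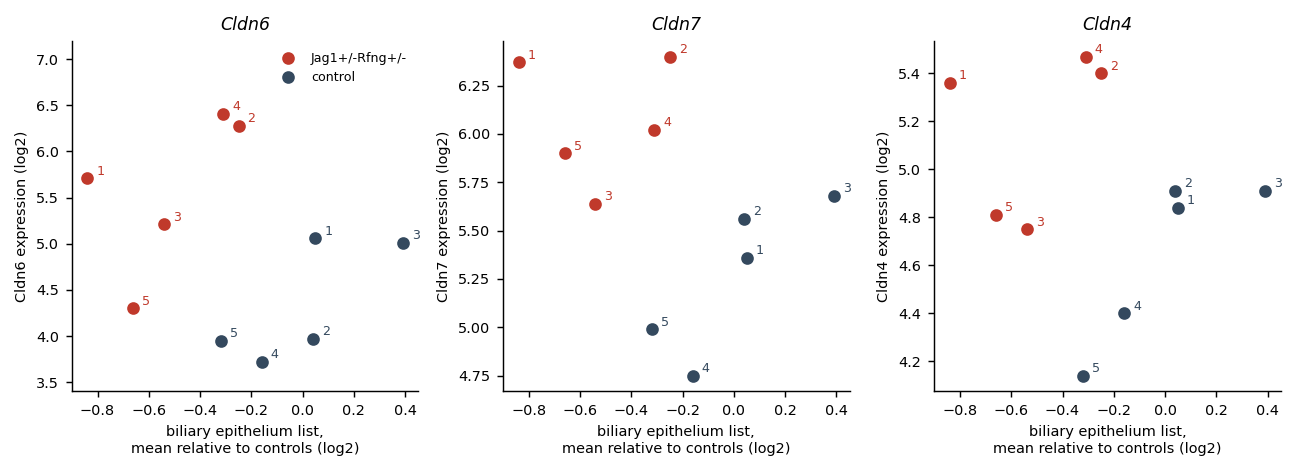
Log2 expression of Cldn6, Cldn7 and Cldn4 on each array against the mean of the biliary epithelium list relative to the control average, with Jag1+/-Rfng+/- arrays in red and control arrays dark, numbered by replicate. The Jag1+/-Rfng+/- arrays lie to the left, at -0.84 to -0.25, and mostly above the controls, which lie at -0.32 to 0.39.

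Whether the claudins vary together apart from genotype was asked of the deviations of each array from its group mean, which the choice of the claudins did not use. All 45 pairs of the 10 claudins were compared, by an exact permutation of the values within each group (14400 arrangements, two-sided). Cldn6 and Cldn7 had a Pearson r of 0.58 and a Spearman rho on within-group ranks of 0.65 (n = 10; exact permutation p = 0.0919 and 0.0761, adjusted p = 0.517 for Pearson), and r was 0.72 without the 2 arrays farthest from the median of Cldn6. So the pair with the widest group differences did not pass a test of co-variation within groups.

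Cldn4 and Cldn5 were the 1 pair of 45 past an adjusted p of 0.05, with r = 0.92 and rho = 0.90 (n = 10; exact permutation p = 0.000764 and 0.00431, adjusted p = 0.0344 for Pearson), and r = 0.91 without the 2 arrays farthest from the median of Cldn4. Leaving out single arrays kept r between 0.90 and 0.95 but ended the call for all but Jag1+/-Rfng+/- replicates 2 and 4, with fewer arrangements possible (adjusted p 0.0469 to 0.172), and Spearman's rho did not pass (adjusted p = 0.194). A further 5 pairs had an unadjusted p under 0.05. They were Cldn5 with Cldn6 (r = 0.86, rho = 0.75, without the 2 farthest arrays 0.83), Cldn4 with Cldn7 (0.83, 0.80 and 0.77), Cldn5 with Cldn7 (0.77, 0.85 and 0.72), Cldn4 with Cldn6 (0.76, 0.75 and 0.85), and Cldn1 with Cldn2 (0.54, 0.50 and 0.81), with exact permutation adjusted p of 0.163, 0.163, 0.163, 0.201 and 0.201. Cldn2 read above the range of absent genes on 1 array only, and for its pair with Cldn1 rho had an exact permutation p of 0.192.

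The deviations were also set against the marker lists, as r over the 10 arrays with no test. Cldn5 had r = 0.76 with the biliary list, 0.76 with the fibroblast list and 0.34 with the endothelial list. Cldn6 had 0.65 with the biliary and 0.74 with the fibroblast list. Cldn4 and Cldn7 had 0.62 and 0.50 with the biliary list and -0.69 and -0.77 with the hepatocyte list. With the hepatocyte list Cldn2, Cldn14 and Cldn12 had r of 0.67, 0.63 and 0.63, and Cldn23 had -0.65. The Cldn2 readings lay largely within the range of absent genes. Cldn14 was also positive with the biliary list, at 0.21, and the fibroblast list, at 0.18. Cldn3 had 0.59 with the biliary, 0.37 with the fibroblast and 0.2 with the hepatocyte list. Within groups Cldn6, Cldn7 and Cldn4 thus had positive r with the biliary and fibroblast lists, while between groups these claudins were higher and those lists lower.

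**Figure D4:**
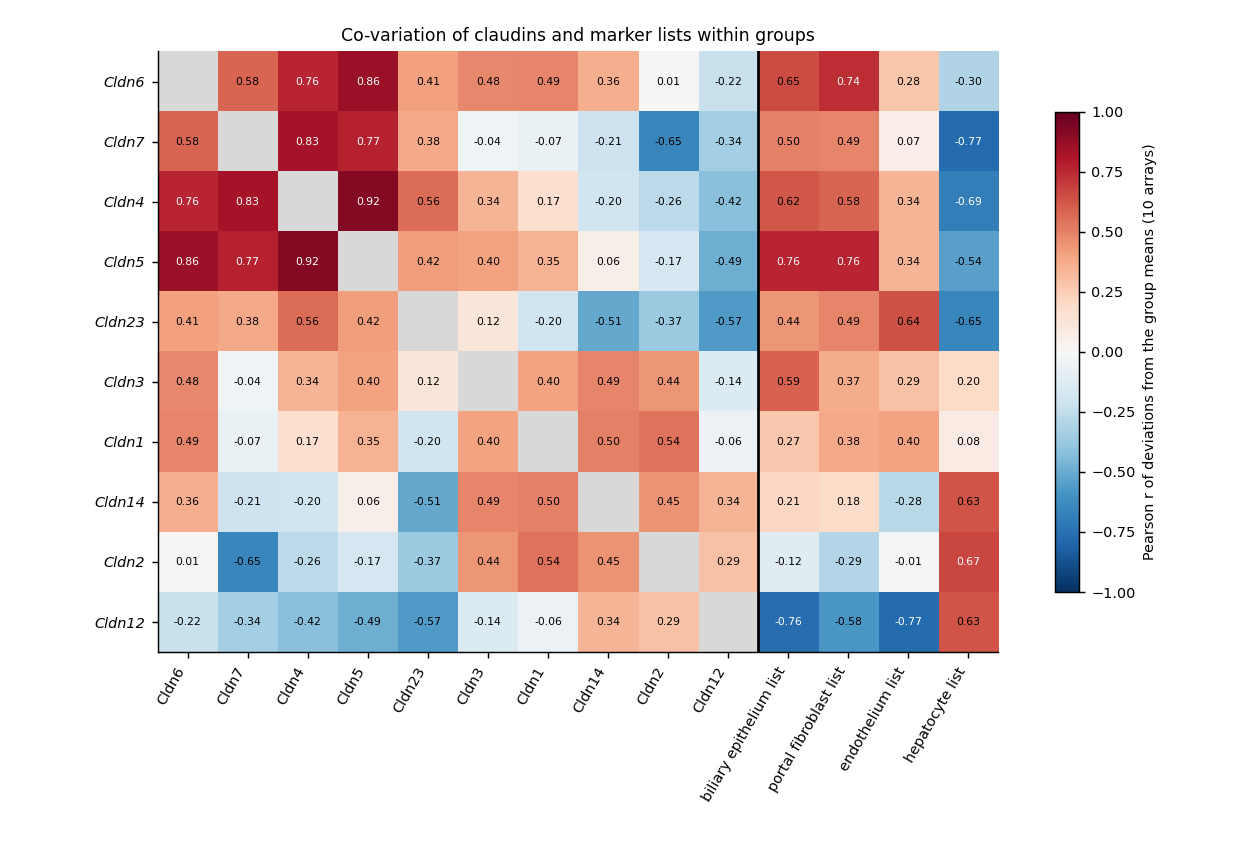
Pearson r between the deviations from the group means of the 10 claudins (rows and left columns) and of the means of 4 marker lists (right columns), over 10 arrays, with red for positive and blue for negative r. Cldn6, Cldn7, Cldn4 and Cldn5 form a block with r of 0.58 to 0.92, and Cldn12 is negative with the biliary list at -0.76.

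Among 9837 genes above the median level, those whose deviations were most like Cldn6 were Tinf2, Xylt2, Pea15a, Acvr1 and Gps1 (r = 0.98, 0.95, 0.95, 0.93 and 0.92 over 10 arrays). For Cldn7 they were Tgfbr1, Chst2, Spata6, Gak and Eepd1 (r = 0.95, 0.93, 0.92, 0.92 and 0.91). The most similar of so many genes reach high r over 10 arrays by selection alone. Their own group differences lay between -0.23 and 0.11, so none of these 10 genes had the difference of the claudin it resembled.

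Among the partners and regulators of the claudins 0 of 73 measured genes on 4 lists lay past an adjusted p of 0.05 in limma's fit. At an unadjusted p under 0.05 there were 12, 6 higher and 6 lower, 16.4% against 6.76% of all genes. The lists were chosen with earlier results of these data known. Of their genes 62 of 73 read above the range of absent genes on every array, against 12446 of 22180 over all genes. For both reasons nothing is read from the 2 shares. Of 14 other membrane proteins of the junction 8 lay higher and 6 lower, with a median difference of 0.14. Ocln, which encodes occludin, the other strand protein of the tight junction, read 6.36, 6.45, 6.58, 6.29 and 6.39 in Jag1+/-Rfng+/- tracts, against 5.93, 5.84, 6.06, 6.19 and 5.96 in control tracts. All Jag1+/-Rfng+/- arrays stood above all controls, by 0.42 ± 0.10 log2 (SE; limma adjusted p = 0.332). Cxadr, the coxsackievirus and adenovirus receptor, an adhesion protein beside the tight junction, read 7.69, 7.64, 7.58, 7.69 and 7.28 in Jag1+/-Rfng+/- tracts, against 7.06, 6.68, 7.18, 7.25 and 6.94 in control tracts, again with groups apart (difference 0.55 ± 0.13 log2, SE; limma adjusted p = 0.332).

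In the opposite direction Ildr1, an angulin of the corners where 3 cells meet, read 3.18 to 3.58 in Jag1+/-Rfng+/- tracts and 3.78 to 4.61 in control tracts (difference -0.61 ± 0.16 log2, SE; limma adjusted p = 0.416). Jam3, a junctional adhesion molecule, differed by -0.56 ± 0.18 log2 (SE; limma adjusted p = 0.597). The groups of Ildr1 lay apart and those of Jam3 overlapped. Over all genes 0.618% lay apart with Jag1+/-Rfng+/- higher and 0.766% with Jag1+/-Rfng+/- lower. Genes of these lists were named mostly for their low p, so nothing is read from groups that lie apart.

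Of 22 cytoplasmic scaffold and polarity proteins 7 lay higher and 15 lower, with a median of -0.06. Amot, which encodes angiomotin and lies on chromosome X, differed by 0.47 ± 0.11 log2 (SE; limma adjusted p = 0.332) with groups apart. How the arrays with high Xist fall between the groups is not given here, and a part of sex in this difference was not tested. The scaffold genes Mpdz, Magi3 and Mpp5 differed by -0.32, -0.36 and -0.31. The plaque protein Tjp1, to which claudins bind, differed by -0.15. Of 16 adherens junction and desmosome genes 6 lay higher and 10 lower, with a median of -0.03. Ctnnb1, which encodes beta-catenin, averaged 7.68 ± 0.09 in Jag1+/-Rfng+/- and 7.94 ± 0.12 in control tracts (SD, n = 5 each), with groups apart (limma adjusted p = 0.615). Nectin2, Ppl and Dsc2 differed by 0.25, 0.31 and -0.19.

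Of 21 transcription factors of epithelial differentiation 9 lay higher and 12 lower, with a median of -0.07. Ehf, an epithelial ETS factor, averaged 2.82 ± 0.29 in Jag1+/-Rfng+/- and 4.68 ± 0.77 in control tracts (SD, n = 5 each; limma adjusted p = 0.108), the Jag1+/-Rfng+/- mean within the range of absent genes. It passed the adjusted threshold without control replicate 5 (difference -2.12, limma adjusted p = 0.0239) and with the hepatocyte list as covariate (-1.96, limma adjusted p = 0.00931). It also passed among genes above the median level, and in no other setting tried. With its Jag1+/-Rfng+/- mean in the range of absent genes, the size of the Ehf difference is not bounded. Klf5 differed by -0.71 ± 0.17 log2 (SE; limma adjusted p = 0.332). Ovol1 lay within or below the range of absent genes on every array, and the control mean of Elf3 lay within it at 2.89, so neither difference is sized here.

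**Figure D5:**
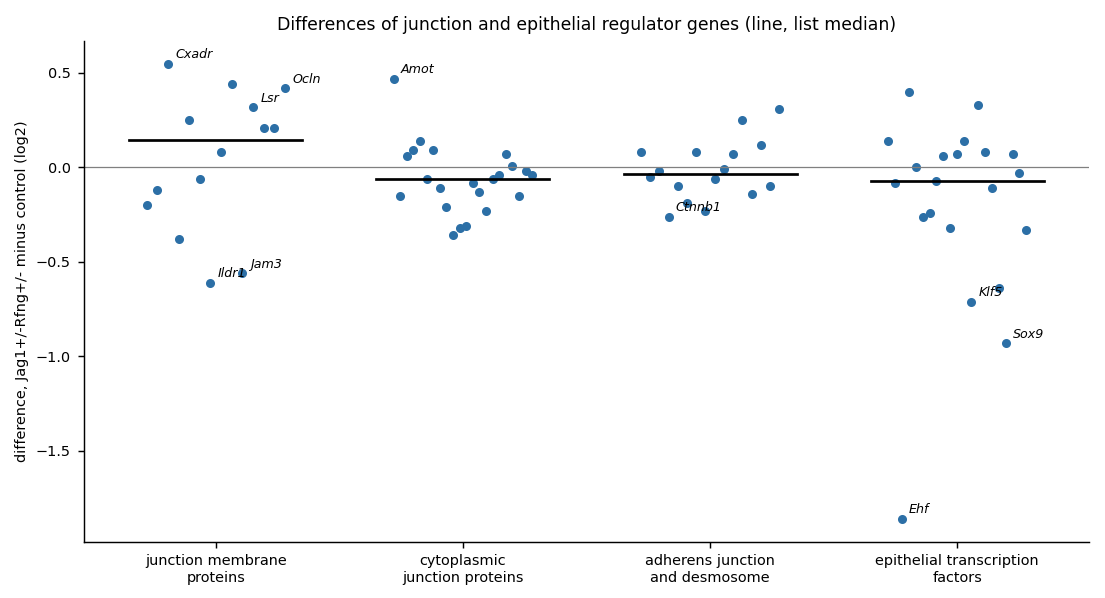
Differences in log2, Jag1+/-Rfng+/- minus control, of the genes of 4 lists, with 1 point per gene, a line at the list median and selected genes named. The membrane proteins have a median of 0.14, with Cxadr at 0.55 and Ocln at 0.42, and Ehf at -1.86 is the lowest point.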

How the data were processed

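Laser-captured portal tracts were measured on 10 single-colour arrays. The authors deposited log2 values for 33649 probe sets on each array. RMA and Partek 6.6 are named, per the submitters' processing notes, which give neither their role nor their order. The table held 0 columns of no sample and 0 pairs of identical arrays. Of the probe sets 23521 had 1 gene symbol, of which 23328 matched a RefSeq gene by Entrez identifier, and the set with the highest mean was taken per gene, giving 22180 genes with no filter on dim ones. Groups and replicate numbers came from the sample titles. Each gene was tested two-sided in limma 3.58.1 under R 4.3.3 by lmFit and eBayes without covariate, with Benjamini-Hochberg adjustment over all genes, and the fit was tested on simulated data. Single values used exact permutation tests over arrays (SciPy 1.17.1).

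The members and gene lists were chosen with earlier results of these data known. Named were the listed claudins, other claudins at an unadjusted p under 0.05, the 4 genes with the lowest p of each junction list, the 5 genes most like Cldn6 and Cldn7, and Jag1, Rfng, Slpi and Mme. The defining markers of the biliary, portal fibroblast and gut and pancreas lists were named too, and those of the hepatocyte and endothelial lists were not. Sox9 is on both the biliary and the transcription factor list. Genomic neighbours, Tjp1, Cldn13 and Cldn20 were named after their values were seen. Spp1, a planned marker, was not analysed here. The comparisons were repeated with single arrays left out, with a replicate block, on arrays sharing a sample-name number, with array weights, other eBayes settings or normalizations, above the median level, on averaged probe sets and with marker lists as covariates.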

Additional observations from a re-analysis of the deposited data

Results flagged for a closer look

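Among the 10 claudins and the other 20, each group of 5 arrays was examined for a lone array far from the rest, 60 groups in all, and 6 were found where chance gives about 1 in 20. On Jag1+/-Rfng+/- replicate 5 Cldn13, a claudin found in rodents, read 8.07, against 4.26 to 4.70 on the other 4 Jag1+/-Rfng+/- arrays (group difference 0.90, and 0.19 without that array), and Cldn1 read 8.18, against 9.03 to 9.30. Cldn34b4 read 1.94 on the same array, against 1.57 to 1.68. Cldn19 read 4.62 on Jag1+/-Rfng+/- replicate 4, against 4.29 to 4.36, and Cldn34b3 read 2.66 on Jag1+/-Rfng+/- replicate 1, against 1.43 to 1.77. Cldn24 read 2.83 on control replicate 1, against 1.90 to 2.15 on the other controls. The readings of Cldn34b3, Cldn34b4 and Cldn24 lie within or below the range of absent genes.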

How the results depend on the processing

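Cldn3, Cldn4, Cldn6, Cldn7, Cldn12 and Cldn23 kept their direction in every setting tried. Cldn1, Cldn2, Cldn5 and Cldn14 turned or came to 0.00 in at least 1, Cldn2 to -0.07 and Cldn1 to 0.02 with the fibroblast list and Cldn14 to 0.04 with the biliary list. Leaving out single arrays gave Cldn6 differences of 1.03 to 1.56 and Cldn7 differences of 0.67 to 0.90. Covariates moved them beyond the spread between arrays, Cldn6 to 2.25 (biliary list) and 2.13 (fibroblast list) and Cldn7 to 1.16 (biliary list), and the cause was not tested. The Cldn6 and Cldn7 correlation stayed between 0.51 and 0.70 with single arrays left out (exact permutation p 0.0594 to 0.195). That of Cldn4 and Cldn5, examined after the data were seen, lay between 0.90 and 0.95, with 0.90 by Spearman.

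Over all genes the count called was 2, between 2 and 6 with single arrays left out (6 leaving out Jag1+/-Rfng+/- replicate 2, and among controls 5 leaving out replicate 4 and 4 leaving out replicate 5), 5 with array weights, 11 with trend and robust eBayes and 11 among genes above the median level, where fewer were tested. Of the claudins 0 were called under any of these settings. In limma's fit without them 5 of the 10 had an unadjusted p under 0.05, all higher, where 2.98% of all genes were. The count was 3 to 5 with single arrays left out, 3 leaving out Jag1+/-Rfng+/- replicate 4 or control replicate 5. Because the choice of the claudins used this contrast, nothing is read from these unadjusted counts. The junction and regulator lists had 0 to 1 called with single arrays left out and 1 among genes above the median level, Ehf in both cases.

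Same-numbered samples did not deviate together (correlations -0.23 to 0.06), so no pairing by replicate number was seen. Such correlations cannot exclude one. With the replicate block 2 genes were called over all genes and 0 claudins, and the Cldn6 and Cldn7 differences were 1.24 and 0.80.

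The number of arrays and the absence of detection calls limit what can be said of dim members such as Cldn2 and Cldn23.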
